A study of Homo sapiens with 16 samples.

Results

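The mevalonate pathway, from acetyl-CoA to squalene, was followed through 9 of its enzymes, ACAT2, HMGCS1, MVK, PMVK, MVD, IDI1, FDPS, GGPS1 and FDFT1, in MCF10HER2 cells given an inhibitor of HER2. MCF10HER2 (MCF-10HER-2 in the labels) derives from MCF10A, a human breast epithelial line that is not transformed, and was stably transduced to express an excess of HER2, the receptor tyrosine kinase that ERBB2 encodes. The members were the probes whose gene symbol was that of 1 of these 9 enzymes, and for a gene with several probes the detected one of highest mean signal would have been taken. Each enzyme had 1 probe, so the 9 members were 9 of the 20589 probes and 9 of the 18190 gene symbols measured, and all 9 were detected on all 16 arrays. The rule that picks the probes uses no change over time, but the enzymes were chosen for study with earlier results of these data known.

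All 16 cultures were MCF10HER2 cells grown in serum-free medium with EGF and hydrocortisone and without insulin. The culture at 0 h was untreated, and the other 15, taken every 3 h from 3 to 45 h, had been kept for that time in 1 µM CP724,714, which blocks the kinase activity of HER2. Each time had 1 culture and 1 array, with no replicate, the medium was renewed when the drug was added, and no untreated culture later than 0 h was analysed here. A change after 0 h therefore cannot be told apart from one that follows fresh medium or time in culture, and the p-values given below measure only the scatter of arrays about a curve in time or within a window of neighbouring hours.

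Mevalonate is the source of the isoprene units that animal cells build into cholesterol, into the farnesyl and geranylgeranyl lipid anchors of small GTPases, and into ubiquinone and dolichol. Cells keep most genes of the pathway under the SREBP transcription factors, which are held inactive in the endoplasmic reticulum when sterols are plentiful and are released when sterols fall, and growth factor signalling through AKT and mTORC1 is known to raise their activity. The members run in this order: ACAT2 joins acetyl-CoA molecules to acetoacetyl-CoA, HMGCS1 adds another to make HMG-CoA, the precursor of mevalonate, MVK and PMVK phosphorylate mevalonate, MVD decarboxylates the product to isopentenyl diphosphate, and IDI1 isomerises that. FDPS then builds farnesyl diphosphate, where the route divides: FDFT1 (squalene synthase) joins farnesyl diphosphate molecules into squalene, the first committed step to sterols, and GGPS1 extends farnesyl diphosphate to geranylgeranyl diphosphate, which is used to anchor proteins. The 9 members do not include every enzyme of the route.

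The values are log2 signals after background correction and quantile normalization. Between 10363 and 11436 probes were detected per array, and the upper quartile of the raw signal was lower at 9 h and 18 h (397.3 and 418.4) than at the other hours (553.2 to 803.7). The background signal separated the 8 arrays of 0 to 21 h (135.9 to 148.9) from the 8 of 24 to 45 h (164.5 to 173.9), and these sets are called array batches below. The labels name no chip, scan or batch, so the batches are inferred from this signal alone, and a change between the sets cannot be told apart from a difference between array batches. Of 9 epithelial markers, 7 were detected on all 16 arrays, CDH1 on 15 and KRT14 on 1, with a summed raw intensity of 63190 to 142200. Of 6 fibroblast markers 4 were detected on no array, COL3A1 on 2 and DCN on all 16 (summed intensity of the list 962.5 to 1480), and DCN was higher with time (0.26 over 45 h, adjusted p = 0.0013, limma). The endothelial CDH5 and VWF and both muscle markers were detected on none and PECAM1 on all 16, and of 5 blood markers 2 were detected on none, CD3E on 1, LYZ on 4 and PTPRC on 7 (762.5 to 1102). The part of other cell types in the results was not tested. The ERBB2 probe was detected on 7 arrays, at a raw intensity of 162.7 to 264.7 over all 16, and whether it lies within the transduced sequence is not given in the sources used here. In a culture measured whole, fewer cells of a kind and less RNA per cell cannot be told apart.

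Of the 9 enzymes, 8 changed with time and all of these were lower at 45 h than at 0 h, while GGPS1, the enzyme of the geranylgeranyl branch, did not pass the test. From 0 h to the lowest array, HMGCS1 fell 9.79-fold, MVD 7.94-fold, ACAT2 4.56-fold, IDI1 4.32-fold, FDPS 3.88-fold, FDFT1 2.24-fold, MVK 2.07-fold and PMVK 1.8-fold, whereas the lowest GGPS1 array was 1.06-fold below 0 h. A spline of time with 4 degrees of freedom, tested in limma with Benjamini-Hochberg adjustment over 12321 probes, called these 8 members, against 41.9% of all probes tested. By the slope of a straight line, the same test called 8 members lower, against 11.5% of all probes, and the median change of the 9 members over 45 h was -1.18, against -0.001 for all genes. The 8 adjusted p-values of the spline lay between 2.29e-07 (MVD) and 0.00273 (PMVK), and that of GGPS1 was 0.64. With the array batch described above as a block, 7 members were called and PMVK was not (adjusted p = 0.112 by spline, limma).

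**Figure D1:**
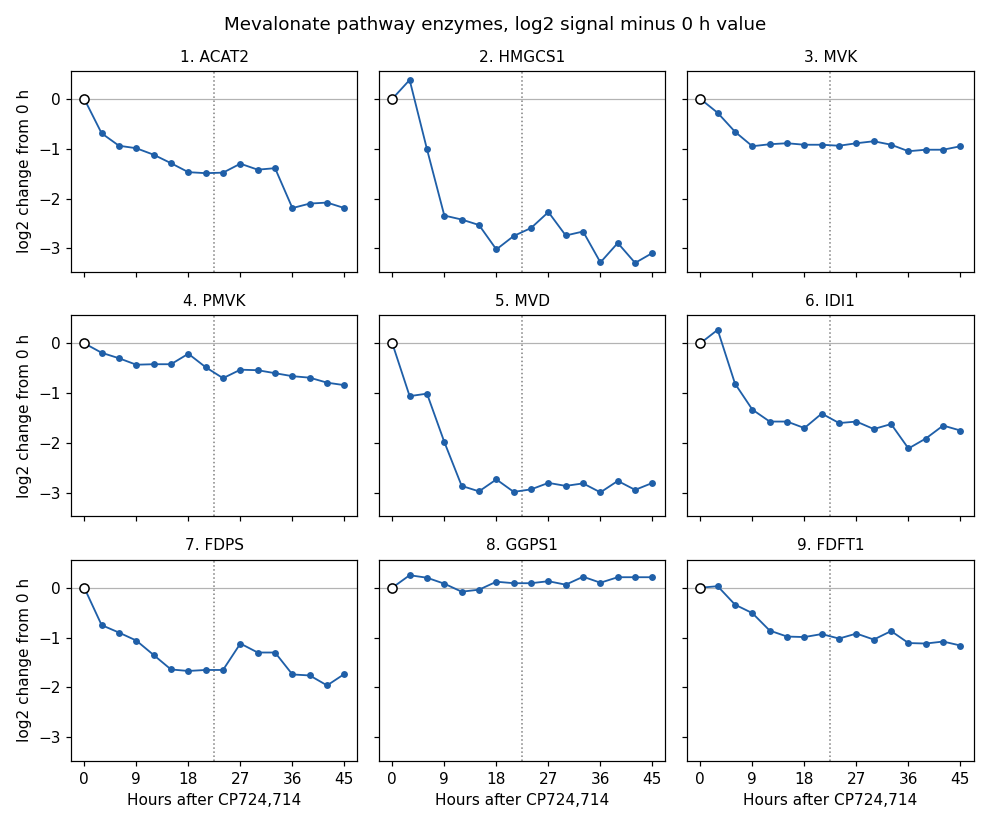
Log2 signal of each of the 9 enzymes minus its 0 h value, on each of the 16 arrays, against hours of CP724,714 at 1 µM, in pathway order. Points are arrays, joined by straight lines, and the open circle is the 1 untreated array at 0 h. By 12 h the enzymes that changed with time had made between 50.3% and 95.7% of their fall. No curve returned to its 0 h level except that of GGPS1, whose log2 signal stayed between 11.27 and 11.6.

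ACAT2, which supplies acetoacetyl-CoA at the head of the pathway, read 14.06, 13.37, 13.12 and 13.07 on the arrays of 0 to 9 h and 12.94, 12.77, 12.59 and 12.57 from 12 to 21 h. It then read 12.58, 12.76, 12.64 and 12.67 from 24 to 33 h and 11.87, 11.96, 11.98 and 11.87 from 36 to 45 h. Every treated array was below the untreated one, and the series fell in an early slope, a flat stretch and a further step at 36 h, which at -0.81 was its steepest.

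HMGCS1, whose product HMG-CoA is the precursor of mevalonate, had the deepest fall of the 9. It read 13.79 untreated, 14.17 after 3 h, 12.78 after 6 h, 11.45 after 9 h, and 11.37, 11.26, 10.77 and 11.04 from 12 to 21 h. The last 8 arrays read 11.2, 11.52, 11.05 and 11.13 from 24 to 33 h and 10.51, 10.9, 10.5 and 10.7 from 36 to 45 h. The first 2 arrays were thus the highest of the series, the 3 h array was the one treated array above 0 h, and the fall came between 3 and 9 h with its steepest step (-1.39) at 6 h. Against the mean of 0 and 3 h, the mean of 12 to 21 h was 7.32-fold lower (log2 change -2.87, SE 0.25, adjusted p = 8.18e-08, limma).

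MVK and PMVK, the kinases of the pathway, moved less. MVK read 9.25, 8.97, 8.59 and 8.3 on the first 4 arrays and stayed between 8.2 and 8.4 on the 12 later arrays. It had made 90.9% of its fall by 9 h, and its mean at 12 to 21 h was 1.71-fold below that of 0 and 3 h (-0.77, SE 0.08, adjusted p = 3.1e-07, limma). MVK was the dimmest member, and its change over 45 h, -0.63 here, was -1.01 under normexp from the signals alone with an offset of 50. PMVK declined slowly, from 11.47 at 0 h through 11.04 at 9 h to 10.63 at 45 h, its lowest array, with 11.26 at 18 h as the largest departure from the slope. Its fall first reached 1.7-fold at 42 h, and its change at 12 to 21 h was 1.22-fold (-0.29, SE 0.11, adjusted p = 0.035, limma), a call that was lost when arrays were scaled to a common median instead (median scaling, adjusted p = 0.164), without the filter on dim probes (0.0904), and when the 0, 12, 15 or 21 h array was left out.

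MVD, which makes isopentenyl diphosphate, had the largest drop at 3 h, on 1 array. Its first 5 arrays, of 0 to 12 h, read 11.78, 10.72, 10.77, 9.8 and 8.92, and all 11 later arrays lay between 8.79 and 9.05. The fall had 2 steps, at 3 h and between 6 and 12 h, with a pause between them, and 95.7% of it was made by 12 h. The mean of 12 to 21 h was 5.12-fold below that of 0 and 3 h (-2.35, SE 0.23, adjusted p = 2.59e-07, limma).

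IDI1, which interconverts isopentenyl and dimethylallyl diphosphate, read higher at 3 h than at 0 h after normalization, on 1 array, as HMGCS1 did, before it fell. Its values were 10.71, 10.98, 9.9 and 9.38 from 0 to 9 h, then 9.14, 9.14, 9.01 and 9.3 from 12 to 21 h, 9.11, 9.14, 8.99 and 9.09 from 24 to 33 h and 8.6, 8.8, 9.06 and 8.96 from 36 to 45 h. The first 2 arrays were above all later ones, and the steepest step was again that at 6 h (-1.08). The mean of 12 to 21 h was 3.25-fold below that of 0 and 3 h (-1.7, SE 0.14, adjusted p = 4.44e-08, limma).

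FDPS, which makes farnesyl diphosphate at the fork of the route, was lower from the first treated array on, as ACAT2 was. It read 11.7, 10.95, 10.8 and 10.64 from 0 to 9 h, 10.35, 10.06, 10.03 and 10.05 from 12 to 21 h, 10.05, 10.58, 10.4 and 10.4 from 24 to 33 h and 9.96, 9.94, 9.74 and 9.97 from 36 to 45 h. Its steepest step was the first (-0.74), and its arrays of 27 to 33 h stood above those of 15 to 21 h and of 36 to 45 h. The mean of 12 to 21 h was 2.31-fold below that of 0 and 3 h (-1.21, SE 0.17, adjusted p = 1.8e-05, limma).

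The enzymes that use farnesyl diphosphate parted. FDFT1, on the sterol side, read 13.69, 13.72, 13.35, 13.18 and 12.83 from 0 to 12 h, and lay between 12.53 and 12.82 on the 11 later arrays. Its mean at 12 to 21 h was 1.94-fold below that of 0 and 3 h (-0.96, SE 0.08, adjusted p = 3.82e-08, limma). GGPS1, on the geranylgeranyl side, read 11.35 at 0 h and 11.6 at 3 h, and between 11.27 and 11.57 on the other 14 arrays, with 2 treated arrays below the untreated one. Its change at 12 to 21 h was -0.11 (SE 0.1, adjusted p = 0.424, limma) and over 45 h was 0.12 (SE 0.11, adjusted p = 0.454, limma). Log2 ratios to GGPS1 were tested for a change from 0 and 3 h to the 6 arrays of 6 to 21 h. These arrays were all in the first array batch. FDFT1 over GGPS1, which compares the branches, changed by -0.72, from between 2.12 and 2.34 to between 1.22 and 1.8. FDPS acts before the fork and lies on neither branch. FDPS over GGPS1 changed by -0.94, from between -0.65 and 0.35 to between -1.45 and -0.75. Neither pair of ranges overlapped. Each two-sided exact permutation p was 0.0357, the smallest that the 28 arrangements of 2 and 6 arrays allow, and 0.0357 after Benjamini-Hochberg adjustment over the 3 ratios tested. The test treats the arrays as exchangeable, but they are ordered in time, so any early fall against a level gene could give this p. With the dimmer 9 h and 18 h arrays left out the changes were -0.71 for FDFT1 and -0.93 for FDPS over GGPS1. The exact permutation p was 0.0667 for each, the smallest that the 15 arrangements left allow (adjusted p = 0.1), so this check could not pass the threshold.

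Promoter sequence is shown for the 7 members found in the table of promoters, because SREBP binds together with NF-Y, whose box reads CCAAT, at many sterol-regulated promoters. The bases are the 250 upstream of the most 5′ of the gene's starts listed in RefSeq (GRCh38.p14), 5′ to 3′ on the gene's strand. Any other listed start of a gene is called a further start below. They come from chr5:43313413-43313662 (minus strand) for HMGCS1, chr16:88663092-88663341 (minus) for MVD, chr12:109573544-109573793 (plus) for MVK, chr1:155308616-155308865 (plus) for FDPS, chr10:1056705-1056954 (minus) for IDI1, chr1:154936720-154936969 (minus) for PMVK and chr1:235326966-235327215 (plus) for GGPS1. Capitals mark CCAAT or its reverse complement ATTGG.
HMGCS1: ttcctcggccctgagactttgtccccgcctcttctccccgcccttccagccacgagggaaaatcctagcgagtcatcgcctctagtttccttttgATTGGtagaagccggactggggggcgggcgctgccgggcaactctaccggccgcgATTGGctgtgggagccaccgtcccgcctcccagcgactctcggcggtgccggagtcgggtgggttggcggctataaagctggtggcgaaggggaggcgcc
MVK: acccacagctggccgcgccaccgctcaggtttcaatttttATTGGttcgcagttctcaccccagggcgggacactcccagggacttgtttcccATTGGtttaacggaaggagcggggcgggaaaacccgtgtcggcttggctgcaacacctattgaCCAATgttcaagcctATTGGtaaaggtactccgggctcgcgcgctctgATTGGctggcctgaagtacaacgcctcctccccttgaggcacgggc
PMVK: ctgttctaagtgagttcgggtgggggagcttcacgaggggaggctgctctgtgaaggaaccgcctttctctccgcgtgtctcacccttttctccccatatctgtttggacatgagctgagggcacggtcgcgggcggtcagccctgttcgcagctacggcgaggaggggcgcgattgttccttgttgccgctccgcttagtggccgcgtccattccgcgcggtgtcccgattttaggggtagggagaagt
MVD: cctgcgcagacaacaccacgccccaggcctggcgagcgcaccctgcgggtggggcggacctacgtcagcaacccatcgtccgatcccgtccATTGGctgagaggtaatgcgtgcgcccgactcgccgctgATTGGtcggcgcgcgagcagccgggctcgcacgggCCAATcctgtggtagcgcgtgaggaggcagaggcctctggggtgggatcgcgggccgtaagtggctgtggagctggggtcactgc
IDI1: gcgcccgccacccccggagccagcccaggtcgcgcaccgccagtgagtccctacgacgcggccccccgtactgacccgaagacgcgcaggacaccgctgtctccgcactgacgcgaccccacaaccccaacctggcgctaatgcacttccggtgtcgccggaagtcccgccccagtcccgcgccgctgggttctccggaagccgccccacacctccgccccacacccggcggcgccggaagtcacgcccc
FDPS: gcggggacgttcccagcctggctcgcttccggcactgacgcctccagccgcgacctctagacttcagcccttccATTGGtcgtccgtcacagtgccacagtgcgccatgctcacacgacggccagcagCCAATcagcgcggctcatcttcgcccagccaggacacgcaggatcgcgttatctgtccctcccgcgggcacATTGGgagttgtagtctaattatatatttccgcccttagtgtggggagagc
GGPS1: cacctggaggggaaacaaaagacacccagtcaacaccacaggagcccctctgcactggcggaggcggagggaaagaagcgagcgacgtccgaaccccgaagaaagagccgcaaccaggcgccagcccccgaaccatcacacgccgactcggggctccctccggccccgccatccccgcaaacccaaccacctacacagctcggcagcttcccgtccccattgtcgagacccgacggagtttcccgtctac
These windows held CCAAT on either strand 2 times for HMGCS1, 3 for MVD, 5 for MVK and 3 for FDPS, and 0 times for IDI1, which fell 4.32-fold, PMVK, which fell 1.8-fold, and GGPS1. Of all 35116 promoter windows of the same length, 32.0% held at least 1 match, 9.53% at least 2 and 2.93% at least 3. Counted from the start, the nearest match began at -100 in HMGCS1, -85 in MVD, -46 in MVK and -51 in FDPS. The count depended on the start taken: the 3 starts of IDI1 had 0, 2 and 3 matches (the last with an overlapping match on both strands), the 3 of GGPS1 had 0, 1 and 0, and the further start of HMGCS1 had 0. The Sp1 box GGGCGG was found in 42.6% of all windows and in all 7 of these except that of GGPS1. Each further start of GGPS1 held it 2 times. CACNCCAC, a form of the sterol regulatory element, was found in 4.87% of all windows, in none of the 7 and in 1 of the further starts of IDI1. A match is a description of letters and not a measured site, and no binding was measured in these cells.

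At 3 h the members already differed. MVD (-1.07), FDPS (-0.74) and ACAT2 (-0.69) were lower than at 0 h, MVK (-0.28) and PMVK (-0.2) a little lower, FDFT1 level (0.03), and HMGCS1 (0.37), IDI1 (0.27) and GGPS1 (0.25) higher. This step rests on 1 array at each end, so it has no test. Its size is to be read against the root mean square step of all probes at 3 h, 0.31. In raw signal HMGCS1 (16650 at 0 h, 16420 at 3 h), IDI1 (2103 and 2089) and GGPS1 (3252 and 3036) were not higher at 3 h. Their rise appears only in the normalized values. At 3 h, 1 member, MVD, was 1.7-fold or more below 0 h, against 2.35% of all probes. The number was 5 at 6 h, 6 at 9 h, 7 from 12 to 39 h, and 8 at 42 and 45 h. The share of all probes was 4.43% at 45 h and was not computed for the hours from 6 to 42 h. Taken as the first of 2 successive arrays at 1.7-fold or more below 0 h, a condition that 6.68% of all probes met, the onset was 3 h for MVD, 6 h for ACAT2, HMGCS1, IDI1 and FDPS, 9 h for MVK, 12 h for FDFT1 and 42 h for PMVK, and GGPS1 had none. With median scaling, ACAT2 and FDPS began at 3 h, MVK at 12 h and PMVK at 33 h. These onsets rest on single arrays and on the scaling, and no order between them was tested.

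**Figure D2:**
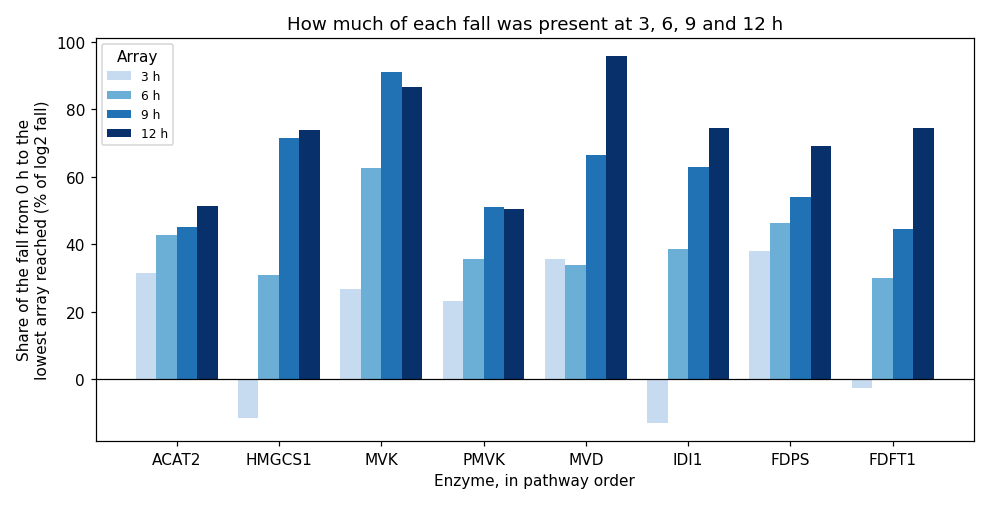
Share of each enzyme's fall, from its 0 h array to its lowest array, that was made by 3, 6, 9 and 12 h, in percent, for the 8 enzymes that changed with time. ACAT2, MVK, PMVK, MVD and FDPS had made between 23.3% and 38.1% of their fall by 3 h, while HMGCS1 (-11.3%), IDI1 (-12.8%) and FDFT1 (-2.44%) were at or above the 0 h level.

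The share of the fall made by each hour separated the courses further. By 6 h it was 62.6% for MVK and between 29.9% (FDFT1) and 46.2% (FDPS) for the other 7 enzymes that changed. By 9 h MVK had made 90.9%, HMGCS1 71.4%, MVD 66.4% and IDI1 62.9%, and FDPS, PMVK, ACAT2 and FDFT1 between 44.5% and 53.9%. By 12 h MVD led with 95.7%, and ACAT2 (51.2%) and PMVK (50.3%) had the least. HMGCS1, IDI1 and FDFT1, none of which was lower at 3 h, had made 73.7% to 74.5% by 12 h. The lowest array fixes the denominator, so these shares are descriptions.

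The windows of hours gave the tests of onset and depth. From 0 and 3 h to 6 and 9 h, 7 members were lower, against 13.0% of all probes: HMGCS1 by 3.65-fold (-1.87, SE 0.29, adjusted p = 0.00012, limma), IDI1 by 2.31-fold (-1.21, SE 0.16, adjusted p = 3.04e-05), MVD by 1.96-fold, MVK by 1.59-fold, ACAT2 by 1.53-fold, FDPS by 1.52-fold and FDFT1 by 1.36-fold. PMVK (-0.27, adjusted p = 0.122) and GGPS1 (0.01, adjusted p = 0.963) did not pass in limma. The calls of ACAT2, MVD and FDPS, which were the lowest against 0 h at 3 h, were lost without the 0 h array, where their changes were -0.27, -0.43 and -0.23, and without the 9 h array, where they were -0.59, -0.48 and -0.53, and 4 members were then called. Without the 9 h array the change of HMGCS1 was -1.2. From 0 and 3 h to 12 to 21 h, 8 members were lower, against 22.2% of all probes, and the median change was -1.0, against -0.001 for all probes. For 7 of the 9 members, all but MVD and GGPS1, all 6 arrays of 6 to 21 h lay below both of 0 and 3 h, as they did for 13.1% of all probes.

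**Figure D3:**
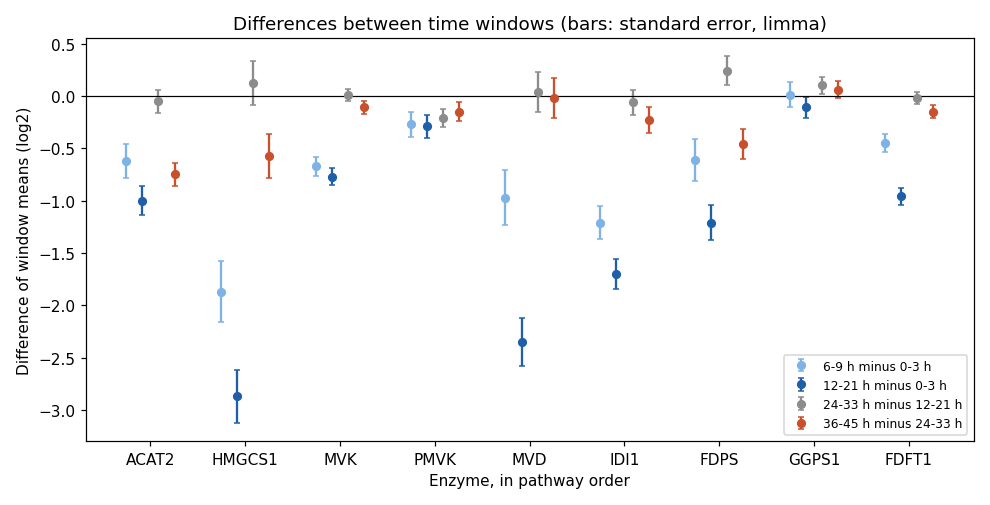
Log2 change of each enzyme between windows of hours with its standard error: onset (6 and 9 h against 0 and 3 h), depth (12 to 21 h against 0 and 3 h), middle (24 to 33 h against 12 to 21 h) and late (36 to 45 h against 24 to 33 h). The onset and depth changes are largest for HMGCS1 (-1.87 and -2.87), the middle changes lie between -0.21 and 0.24, and the late change is largest for ACAT2 (-0.75).

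The lower levels held across the middle of the series. From 12 to 21 h to 24 to 33 h no member was called, against 0.463% of all probes, and the changes lay between -0.21 (PMVK) and 0.24 (FDPS), with adjusted p from 0.312 to 0.972 in limma. This comparison crosses the array batches. The single step from 21 to 24 h, where the batches meet, was largest for PMVK (-0.22), IDI1 (-0.19) and HMGCS1 (0.16).

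Within the second array batch, ACAT2 fell a second time at 36 h. FDPS fell at 36 h too, but from a higher stretch of 10.58, 10.4 and 10.4 at 27 to 33 h. It had read 10.06, 10.03 and 10.05 from 15 to 21 h, and it read 9.96, 9.94, 9.74 and 9.97 from 36 to 45 h. From 24 to 33 h to 36 to 45 h ACAT2 was 1.68-fold lower (-0.75, SE 0.11, adjusted p = 0.000181, limma) and FDPS 1.37-fold lower (-0.46, SE 0.14, adjusted p = 0.0269, limma), 2 of 9 members, against 9.45% of all probes. HMGCS1 was 1.49-fold lower (-0.57, SE 0.21, adjusted p = 0.0571, limma), and with median scaling its adjusted p was 0.0435. The FDPS call was lost when the 27, 30, 33, 39 or 42 h array was left out, with adjusted p between 0.0518 and 0.0914, and that of ACAT2 was kept with any 1 array left out. For ACAT2, HMGCS1, MVK, FDPS and FDFT1, 5 of 9, the 4 arrays of 36 to 45 h lay wholly below the 4 of 24 to 33 h, as they did for 15.4% of all probes. MVD, by contrast, had a late change of -0.02 (SE 0.19, adjusted p = 0.955, limma) and had stayed at its floor since 12 h. The step at 36 h was the largest late one over all probes too, with a root mean square of 0.21, and the members' own steps at that hour were -0.81 for ACAT2, -0.62 for HMGCS1, -0.49 for IDI1, -0.43 for FDPS and between -0.24 and -0.06 for the other 5.

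No enzyme that fell came back within 45 h. The mean of 36 to 45 h stood above the lowest array by 2.36% of the fall for ACAT2 and by at most 12.0% (IDI1) among the 8 enzymes. The lowest array of each of these 8 lay itself within 36 to 45 h, so this share reflects only the spread within that window. Of all probes 4.43% were 1.7-fold or more below the untreated array at 45 h, where HMGCS1 was 8.55-fold, MVD 6.98-fold, ACAT2 4.54-fold, IDI1 3.36-fold and FDPS 3.32-fold below it. FDFT1 was 2.24-fold, MVK 1.93-fold and PMVK 1.8-fold below it.

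The 11 enzymes that turn squalene into cholesterol fell as well. All 11 were tested, and 9 were lower at 6 and 9 h (13.0% of all probes) and 11 at 12 to 21 h (22.2% of all probes), with a median change of -1.25. The greatest ranges over time were those of DHCR7 (2.23), which reduces the last double bond (12 to 21 h against 0 and 3 h: -1.92), LSS (2.13), which folds squalene epoxide into lanosterol (-1.72), SQLE (1.87), the squalene epoxidase (-1.32), and SC4MOL (1.78), the C4 methyl oxidase now called MSMO1 (-1.57). The split at 3 h was seen here too in the normalized values, of 1 array each: LSS was lower than at 0 h (-0.63), and SQLE (0.85) and SC4MOL (0.47) were higher. The raw signals of these genes were not compared, and the rises of members at 3 h appeared only after normalization. In the late comparison 1 of the 11 was lower, against 9.45% of all probes.

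The genes of sterol sensing and uptake were 11 symbols, of which 9 were tested, and 6 of these were lower at 12 to 21 h, against 22.2% of all probes, with a median change of -0.77 over the 9. INSIG1, which retains SREBP in the endoplasmic reticulum and is itself an SREBP target, had a range of 2.58 and a change of -2.16 (adjusted p = 9.04e-09, limma). SREBF1, which encodes the SREBP-1 proteins, changed by -1.22 and was already lower at 3 h (-0.93). SREBF2, which encodes SREBP-2, changed by -0.77. None of the 9 was called in the late comparison.

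Among the enzymes beside the head of the pathway, ACLY and AACS fell and ACAT1 did not. Of 7 symbols for acetyl-CoA supply and isozymes, 5 were tested, and at 12 to 21 h ACLY, which makes cytosolic acetyl-CoA from citrate, was lower (-1.15, adjusted p = 5.31e-06, limma) and AACS, which activates acetoacetate, was lower (-0.42, adjusted p = 0.000738). IDI2, an isozyme of IDI1, was detected on no array. ACAT1, the mitochondrial counterpart of ACAT2, changed by 0.05 (adjusted p = 0.689, limma) at 12 to 21 h and rose by 0.48 over 45 h (adjusted p = 0.00438, limma). The ratio of ACAT2 to ACAT1 changed by -0.82 from 0 and 3 h to 6 to 21 h, from between 0.86 and 1.29 to between -0.17 and 0.74 (two-sided exact permutation p = 0.0357, the smallest of 28 arrangements, adjusted p = 0.0357). Without the 9 h and 18 h arrays it changed by -0.86, with an adjusted p of 0.133, where the 15 arrangements left allow none under 0.0667. The permutation test treats arrays that are ordered in time as exchangeable here too.

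Downstream of the fork, the enzymes that use farnesyl and geranylgeranyl diphosphate for other ends are 15 symbols, of which 14 were tested. Of these 3 changed with time, against 41.9% of all probes. At 12 to 21 h 1 was higher, RABGGTA, a subunit of the Rab geranylgeranyl transferase (0.49). Also at 12 to 21 h, 1 was lower, PDSS2, which with PDSS1 builds the ubiquinone side chain (-0.52), against 22.2% of all probes. The median change was -0.01. Over all 12321 probes, that comparison called 5344 in either direction, of which 2736 were lower. PDSS1 changed with time over a range of 0.43. In the late comparison 2 of the 14 were lower, against 9.45% of all probes.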

How the data were processed

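MCF10HER2 cells were measured on Illumina human Ref-8 v2 beadchips, 1 array at each of 16 times. The authors deposited the intensity of each probe before normalization between arrays, and beside it a detection p-value that sets the probe against the negative controls of its array. The study compared its arrays after quantile normalization. Array count, not read depth, limits the precision.

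Here the function neqc of limma (version 3.58.1, R 4.3.3) corrected them for background with an offset of 16, quantile-normalized them and took log2. Testing was limited to the 12321 probes that at least 3 arrays detected at p below 0.05. Time was tested with a natural cubic spline of 4 degrees of freedom (moderated F), by a straight line (log2 change over 45 h), and by contrasts among 5 windows of hours (0 and 3, 6 and 9, 12 to 21, 24 to 33, 36 to 45), with lmFit, eBayes with a mean-variance trend, and Benjamini-Hochberg adjustment over all probes tested at 0.05. The scripts' fits were checked on simulated data. Alternatives were median scaling, an offset of 50, no filter, the array batch as a block, each batch alone, leaving out each array, and leaving out the 9 h and 18 h arrays.

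All 9 members are named. Of each other list the genes that changed with time are named, up to the 4 with the largest fitted range, and 10 further genes by likeness of profile. A few others are named with their values where a comparison with a member needed them, and were chosen after the values were seen. Some genes that this rule would name are not reported here. Members and lists were chosen with earlier results of these data known.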

Additional observations from a re-analysis of the deposited data

How the results depend on the processing

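No paired analysis was possible because the 16 times had a single array apiece. Leaving out 1 array at a time gave 8 to 8 members by spline and by straight line, 4 to 7 lower at onset, 7 to 8 lower at 12 to 21 h, 0 to 0 in the middle and 1 to 3 in the late comparison. The late count was 1 without the 27, 30, 33, 39 or 42 h array, where FDPS was lost, and 3 without the 0, 3, 6 or 9 h array, where HMGCS1 was gained. Without the 9 h and 18 h arrays together the onset count was 4, and the ratio changes were -0.93 for FDPS over GGPS1 (adjusted p = 0.1), -0.71 for FDFT1 over GGPS1 (adjusted p = 0.1) and -0.86 for ACAT2 over ACAT1 (adjusted p = 0.133), exact permutation tests over 15 arrangements that cannot pass 0.05. Within 24 to 45 h alone the straight line called 3 members (ACAT2, HMGCS1 and FDPS), and MVD had a change of 0.05 (adjusted p = 0.892, limma), the reverse of its direction over all arrays. Within 0 to 21 h alone it called 7. With the array batch as a block, spline and line each called 7, and PMVK was lost (adjusted p = 0.112 and 0.144, limma). Of 1296 values of single members under the alternatives, 1251 kept their direction and side of the threshold, 11 changed sign while past the threshold in neither fit, 27 lost the call, 6 gained it and 1 reversed. Where no cause is given, it was not tested. Each member has 1 probe, so no second probe checks it, and the 3 h step rests on 1 array.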

Other observations

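Among 12 proteins that carry a farnesyl or geranylgeranyl anchor, 7 changed with time (41.9% of all probes did). At 12 to 21 h against 0 and 3 h, 5 were lower (22.2% of all probes) and 2 higher, with a median change of -0.08. Over all 12321 probes, that comparison called 5344 in either direction, of which 2736 were lower. The probe of RAC1, a small GTPase, was higher by 2.42 (adjusted p = 8.34e-08, limma), from a dim 8.83 at 0 h, and whether it also binds other transcripts was not tested. The probe of LMNB1, which encodes lamin B1, was higher by 0.87. HRAS changed by -1.13 (adjusted p = 2.75e-07, limma), and NRAS changed by -0.31.

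Among the 10 genes outside the 9 enzymes whose 16 values followed the mean standardized profile of the members most closely were CBS, which makes cystathionine (Pearson r = 0.98), ODC1, which makes putrescine (0.98), HES6, a transcriptional regulator (0.978), LOC440686 (0.973), DYRK3, a protein kinase (0.973), NANS, a sialic acid synthase (0.972), MARS, the methionyl-tRNA synthetase (0.971), and C12orf5 (0.971). These are descriptions over 16 arrays that share a culture series and an early fall. The changes of these named genes at 12 to 21 h lay between -2.86 (HES6) and -0.32 (LOC440686). Against the mean of the other members, the r of each member was 0.97 for HMGCS1 and FDFT1, 0.96 for IDI1, 0.94 for MVD, 0.93 for MVK, 0.9 for FDPS, 0.85 for ACAT2, 0.77 for PMVK and -0.09 for GGPS1.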
